A study of Homo sapiens with 12 samples.

Results

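SHMT2, SFXN1 and MTHFD2 are 3 of the 543 genes whose expression was repressed by CRISPR interference in a dual-sgRNA library, in which each construct carries a pair of single guide RNAs. They were picked as genes of mitochondrial serine and one-carbon metabolism among those whose knockdown became more abundant under the PARP inhibitor niraparib, with the drug response of these libraries already known. Of 1301881 constructs, 13656 carried a sgRNA of at least 1 of the 3 genes: 4560 for each gene, of which 220 paired it with a non-targeting sgRNA. Of these, 36 had both of their sgRNAs directed at these genes. All 13656 came from 6 sgRNAs, 2 for each gene, so values of different constructs of a gene share their sgRNAs.

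In mitochondria, SFXN1 carries serine across the inner membrane, SHMT2 splits serine into glycine and a folate-bound one-carbon unit, and MTHFD2 oxidises that unit. MTHFD1L then releases it as formate, which leaves the mitochondrion and is taken up by the cytosolic enzyme MTHFD1 for the synthesis of purines, thymidylate and methionine. PSPH catalyses the last step of serine synthesis. Niraparib blocks PARP1 and PARP2, enzymes that mark DNA breaks with ADP-ribose, and its toxicity depends largely on PARP1 protein held on DNA.

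The cells were K562, an established human leukemia line, of a CRISPR interference derivative carrying the repressor machinery that all groups shared. There were 12 libraries in 6 groups of 2. The niraparib endpoint of 2022 was exposed to 2 µM niraparib for 3 days and harvested on day 18 after transduction. The niraparib endpoint of 2023 received 2 µM, raised to 3 µM from day 2, for 4 days in all, was then grown without drug, and was harvested on day 19. The DMSO endpoints of 2022 and 2023 received the solvent alone and were harvested on the same days as their niraparib arms, and the T0 groups of both screens were sampled on day 9, before dosing. A replicate culture gave its T0 library first and was then split between niraparib and DMSO, so that the 12 libraries come from 4 cultures. What was counted is the abundance of each construct in genomic DNA. The remaining mRNA or protein of a repressed gene was not measured, so a small effect cannot be told apart from a weak knockdown. The doses and exposure times differed between the screens together with the year of the screen, and these cannot be told apart.

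The libraries held 182.6 to 460.7 megareads, with a median of 100 to 258 reads per construct. Summed over its 220 constructs with a non-targeting sgRNA, a member had 10594 to 83184 reads in a library. Pairs of 2 genes rest on 8 constructs and far fewer reads, given below where they matter. Values are log2 ratios between libraries in which 0 is the level of the 3025 constructs with 2 non-targeting sgRNAs. Of 55 non-targeting sgRNAs tested as if they were genes, 3 were called in growth and 2 in drug response, with growth values between -0.06 and 0.08.

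The sgRNA names place both sgRNAs of SHMT2 19 bases apart on opposite strands, those of SFXN1 48 bases apart on opposite strands and those of MTHFD2 7 bases apart on the same strand. Each pair therefore targets nearly the same spot. The genome build of those positions is not given in the sources used here. On GRCh38, SHMT2 lies on chromosome 12 at 57229711 to 57234935, SFXN1 on chromosome 5 at 175478560 to 175529742 and MTHFD2 on chromosome 2 at 74198615 to 74217565. CRISPR interference acts at the start of transcription, so the RefSeq promoters on GRCh38.p14 are shown for SFXN1 (chr5:175478310-175478609, plus strand) and MTHFD2 (chr2:74198365-74198664, plus strand), each running from 250 bases before the annotated start to 50 bases after it. Capitals mark every match to CCAAT or GGGCGG on either strand, the motifs named the CCAAT box and the GC box, which do not overlap here.
SFXN1: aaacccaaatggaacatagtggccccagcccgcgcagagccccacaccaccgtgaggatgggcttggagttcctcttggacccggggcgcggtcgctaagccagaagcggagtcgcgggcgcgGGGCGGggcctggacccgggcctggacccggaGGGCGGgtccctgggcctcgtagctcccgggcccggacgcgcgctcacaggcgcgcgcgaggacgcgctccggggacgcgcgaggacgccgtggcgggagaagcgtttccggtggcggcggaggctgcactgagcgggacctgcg
MTHFD2: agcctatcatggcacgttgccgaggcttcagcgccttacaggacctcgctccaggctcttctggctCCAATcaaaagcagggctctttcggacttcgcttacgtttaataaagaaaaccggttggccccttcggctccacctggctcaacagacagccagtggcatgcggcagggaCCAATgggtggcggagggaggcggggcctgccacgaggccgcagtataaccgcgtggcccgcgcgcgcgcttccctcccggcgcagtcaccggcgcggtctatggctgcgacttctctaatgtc
The SFXN1 promoter held 2 matches to GGGCGG and 0 to CCAAT, and the MTHFD2 promoter held 2 matches to CCAAT and 0 to GGGCGG. Of 35116 RefSeq promoters of the same length, 34.6% held CCAAT and 45.0% held GGGCGG, so these matches are common, and the 2 promoters share neither.

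Knockdown of each member slowed growth without drug. Growth is the log2 change of DMSO over T0. SHMT2 changed by -1.20 and -1.70 in replicates 1 and 2 of 2022 and by -1.96 and -1.87 in replicates 1 and 2 of 2023, a mean of -1.68 ± 0.34 (SD, n = 4 cultures). SFXN1 changed by -1.02, -1.41, -1.53 and -1.55 in the same order, a mean of -1.38 ± 0.24. MTHFD2 changed by -0.91, -1.27, -1.42 and -1.40, a mean of -1.25 ± 0.24. In each of the 3 genes replicate 1 of 2022 lost the least, and all 12 values lay below 0. In edgeR's quasi-likelihood test the adjusted p was 1.28e-06 for SHMT2, 1.30e-06 for SFXN1 and 9.19e-07 for MTHFD2, where 81.0% of the 543 genes were called lower. Their ranks from the most depleted gene were 52, 87 and 103 of 543. From most to least depleted, the order was SHMT2, SFXN1, MTHFD2 in every culture, and within a culture the difference was -0.30 ± 0.10 for SHMT2 minus SFXN1 and -0.13 ± 0.02 for SFXN1 minus MTHFD2 (SD, n = 4), below 0 in 4 of 4 cultures each.

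The fixed list of one-carbon and serine genes had 6 measured genes, the 3 members and 3 others, all lower in growth. MTHFD1 averaged -1.75 ± 0.15, with an adjusted p of 8.57e-10 in edgeR's test. PSPH averaged -1.23 ± 0.07 (adjusted p = 8.15e-09) and MTHFD1L averaged -0.68 ± 0.13 (adjusted p = 5.82e-07). The spread over cultures was thus smaller for these 3 genes than for the members.

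The 2 sgRNAs of each member gave nearly the same growth. SHMT2 had -1.71 and -1.66, SFXN1 -1.33 and -1.42, and MTHFD2 -1.24 and -1.26, as means of 4 cultures. The position in the construct mattered as little, with sgRNA means between -1.74 and -1.64 for SHMT2, -1.43 and -1.30 for SFXN1 and -1.30 and -1.22 for MTHFD2. Among the other pathway genes the fitted values per sgRNA were farther apart, at -3.11 and -1.33 for MTHFD1, -1.02 and -0.36 for MTHFD1L and -1.07 and -1.55 for PSPH. Constructs with both sgRNAs of 1 member averaged -1.94 ± 0.38 for SHMT2, -1.41 ± 0.35 for SFXN1 and -1.53 ± 0.42 for MTHFD2. These rest on 2 constructs a gene with 57 to 699 reads a library, and within a culture they differed from the value with a non-targeting partner by -0.26 ± 0.44, -0.04 ± 0.19 and -0.28 ± 0.33, less than the spread between cultures.

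Under niraparib the knockdowns were less depleted. The niraparib endpoint over T0 averaged -0.85 ± 0.06 for SHMT2, -0.72 ± 0.05 for SFXN1 and -0.61 ± 0.06 for MTHFD2 (SD, n = 4). Against -1.68, -1.38 and -1.25 for DMSO over T0, the losses were smaller in every culture. The spread over cultures was also smaller in the niraparib arm, where the range was -0.92 to -0.77 for SHMT2, than in the DMSO arm, where it was -1.96 to -1.20. The difference between the arms is the response, log2 niraparib over DMSO, and it is the measure on which these genes were picked, so it is given here with no test. SHMT2 had 0.43, 0.84, 1.04 and 1.03 in replicates 1 and 2 of 2022 and replicates 1 and 2 of 2023, a mean of 0.84 ± 0.29, or 1.79-fold. SFXN1 had 0.35, 0.72, 0.73 and 0.83, a mean of 0.66 ± 0.21 or 1.58-fold, and MTHFD2 had 0.39, 0.66, 0.76 and 0.76, a mean of 0.64 ± 0.17 or 1.56-fold. Replicate 1 of 2022 was the lowest culture for all 3 genes, as it was the least depleted in growth. Growth and response share the DMSO libraries, which enter them with opposite signs.

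**Figure D1:**
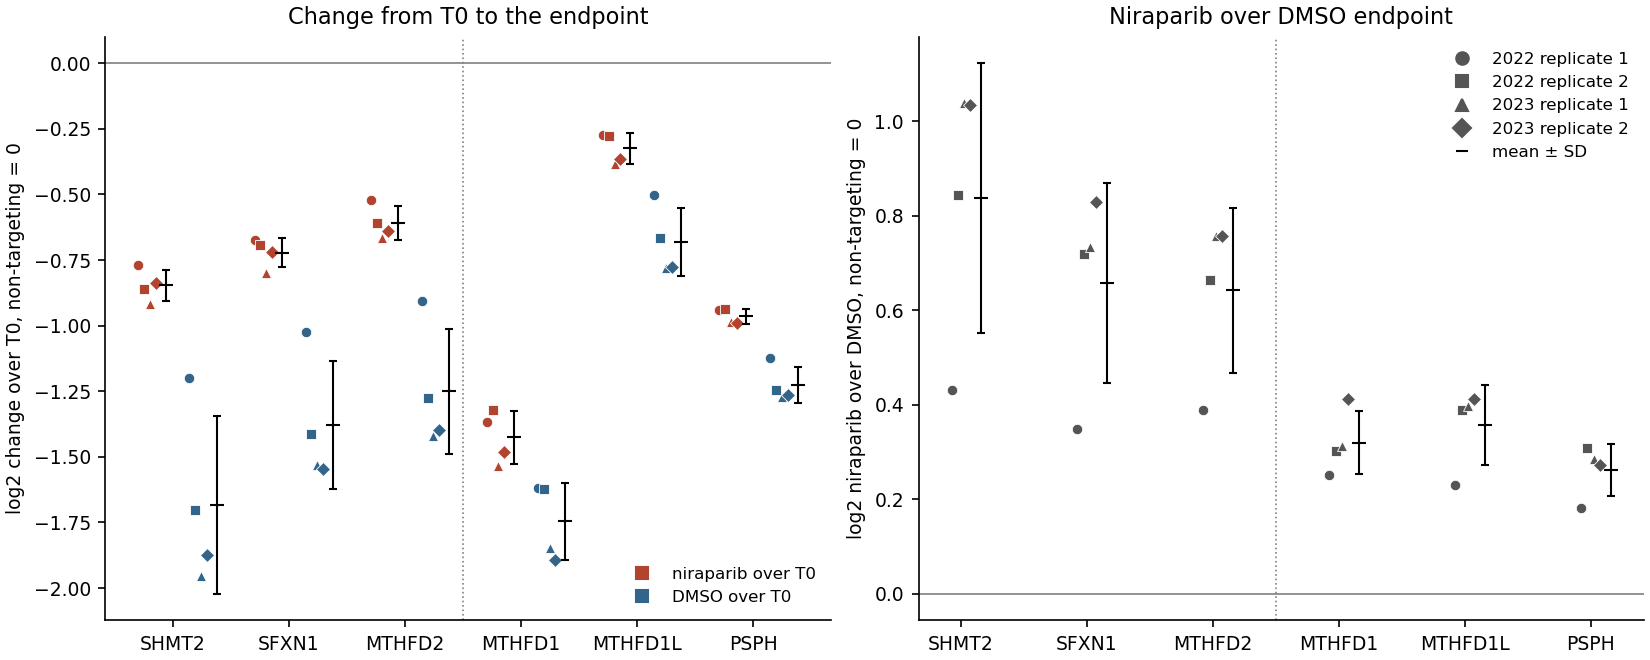
Left, the log2 change from T0 to the endpoint for 6 one-carbon and serine genes, in the niraparib arm (red, left of each pair) and the DMSO arm (blue). Right, the log2 ratio of niraparib over DMSO. Each symbol is 1 of 4 cultures, bars are mean ± SD, 0 is the level of non-targeting constructs, and the dotted line parts the 3 members from the other 3 genes. The members' niraparib values run from -0.92 to -0.52 over cultures, with means of -0.85, -0.72 and -0.61. Their DMSO values run from -1.96 to -0.91, with means of -1.68, -1.38 and -1.25.

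By mean response, SHMT2 ranked 4, SFXN1 10 and MTHFD2 12 of 543 genes. PARP1, the target of the drug, ranked 1 at 2.14 ± 0.34, and SEH1L, a nuclear pore subunit, stood just behind MTHFD2 at 0.59 ± 0.07. Since the response chose the members, these ranks and the following values describe that choice. Of 41 genes with growth within 0.2 of SHMT2, the median response was 0.33 and 0 lay above SHMT2. For SFXN1 the median of 54 such genes was 0.26 with 2 above it, and for MTHFD2 the median of 61 was 0.24 with 3 above it. The plot of response against growth shows them among all genes.

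**Figure D2:**
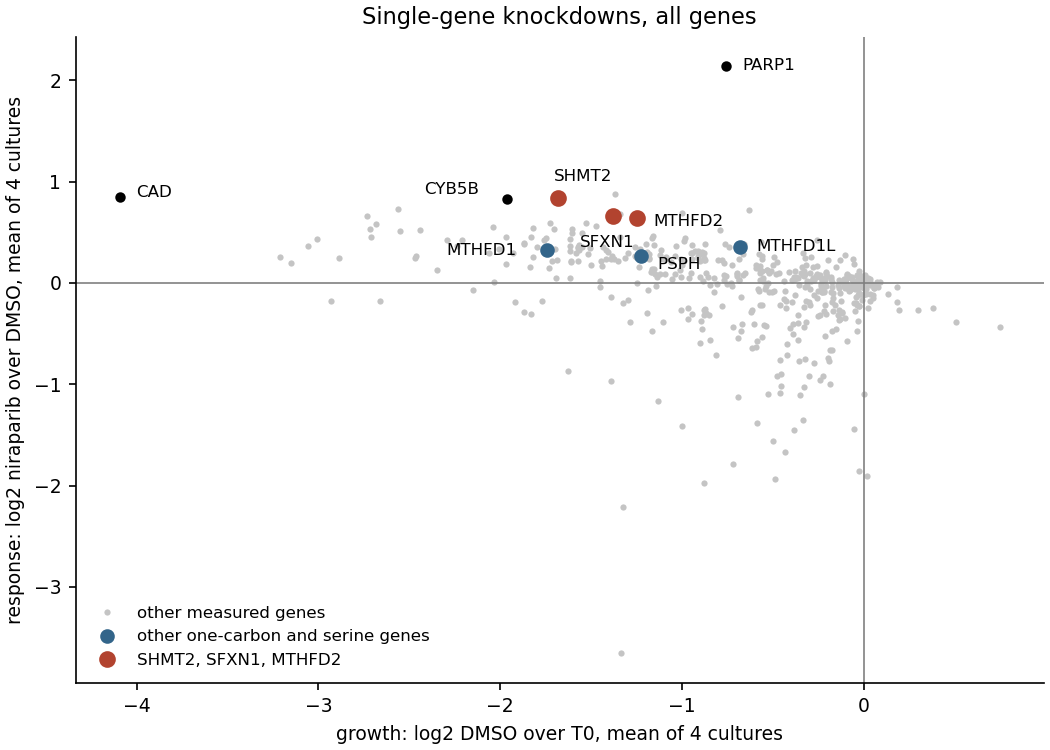
Mean response (log2 niraparib over DMSO, vertical) against mean growth (log2 DMSO over T0, horizontal) of single knockdowns over 4 cultures, 1 point for each of 543 genes. SHMT2, SFXN1 and MTHFD2 (red) lie at 0.84, 0.66 and 0.64, above MTHFD1, MTHFD1L and PSPH (blue) at 0.32, 0.36 and 0.26. The red genes were picked on this response, so their place above the blue genes describes that choice. PARP1, at 2.14, stands above the rest.

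The 3 other pathway genes, which were not picked on it, also responded upward. MTHFD1L had a response of 0.23, 0.39, 0.40 and 0.41 in the 4 cultures (mean 0.36 ± 0.09, edgeR adjusted p = 3.32e-05). MTHFD1 averaged 0.32 ± 0.07 (adjusted p = 8.04e-06) and PSPH 0.26 ± 0.06 (adjusted p = 5.49e-05). All 12 values of these genes were above 0, where 44.2% of the 543 genes were called higher in response in total, so a higher call was common. Their ranks were 57, 71 and 99. Beside genes of like growth, MTHFD1 lay just below the median of 0.33 of its 39 neighbours with 21 above it, and PSPH near the median of 0.24 of its 61 neighbours with 22 above it. MTHFD1L lay above the median of 0.03 of its 93 neighbours, with 7 above it. Its fitted response was 0.55 with the first sgRNA alone and 0.19 with the second, whose growth was -1.02 and -0.36. The mean and the neighbours of MTHFD1L thus rest on sgRNAs of unlike effect.

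The response depends on whether the niraparib and DMSO arms are put on a common scale. The authors' growth values had been divided by constants of 7.19 to 8.04 in the DMSO arm and 4.98 to 5.40 in the niraparib arm per culture. These constants are of the size of cell doublings, but what they stand for is not given in the sources used here. When the niraparib change over T0 was scaled up to the DMSO constant of its culture, the members' response was 0.44 ± 0.19 for SHMT2, 0.32 ± 0.14 for SFXN1 and 0.35 ± 0.10 for MTHFD2, above 0 in all 12 values. Their ranks were then 6, 13 and 10, and the median over all genes was -0.20, with 115 of 543 genes above 0. The members' scaled values come from the same counts as the response that chose them, so they too describe that choice. MTHFD1L kept a value above 0 at 0.20 ± 0.05, with a limma adjusted p of 0.00620. MTHFD1 turned to -0.36 ± 0.12 (limma adjusted p = 0.000555) and PSPH to -0.19 ± 0.09 (limma adjusted p = 0.00685). MTHFD1L then ranked 22, PSPH 268 and MTHFD1 357 of 543, so PSPH stood at the level of the median gene.

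The screens differed in dose, exposure and year. Growth of SHMT2 was lower by 0.47 on the log2 scale in 2023 than in 2022 (-0.47, 95% interval -0.85 to -0.08, edgeR adjusted p = 0.0762). The differences of -0.32 for SFXN1 (adjusted p = 0.129) and -0.32 for MTHFD2 (adjusted p = 0.0838) also did not pass, where 31.1% of genes were called in either direction. The difference in response between the screens, unlike the mean, did not choose the members. It was 0.41 for SHMT2 (interval 0.02 to 0.79, adjusted p = 0.279), 0.25 for SFXN1 (interval -0.07 to 0.57, adjusted p = 0.352) and 0.24 for MTHFD2 (interval -0.04 to 0.51, adjusted p = 0.323), none passing, with 0.368% of genes called. The values hang on the 2022 cultures: without replicate 2 of 2022 the response difference was 0.61 for SHMT2, 0.43 for SFXN1 and 0.37 for MTHFD2, and without replicate 1 of 2022 it was 0.19, 0.06 and 0.09. The growth difference was -0.71, -0.51 and -0.50 without replicate 2 of 2022 and -0.21, -0.13 and -0.14 without replicate 1. Each of these fits leaves 2022 with 1 culture, which is assumed to vary like the others, so their calls are not used.

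Combined knockdown of 2 members added little to knockdown of 1. Cells with SHMT2 and SFXN1 repressed together changed by -1.23, -1.76, -1.85 and -1.85 in the 4 cultures, a growth of -1.67 ± 0.30. This is close to SHMT2 alone at -1.68 and is far from the sum of both singles, -3.06. SHMT2 with MTHFD2 gave -1.72 ± 0.32 against a sum of -2.93, and SFXN1 with MTHFD2 gave -1.60 ± 0.42 against a sum of -2.63. The pair values rest on 414 to 2850 reads in a library. Within a culture, the pair minus SHMT2 alone was 0.01 ± 0.07 with SFXN1 and -0.04 ± 0.06 with MTHFD2. SFXN1 with MTHFD2 minus SFXN1 alone was -0.22 ± 0.22, below 0 in 4 of 4 cultures but from -0.03 to -0.52, so this pair lost somewhat more than its lower single.

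**Figure D3:**
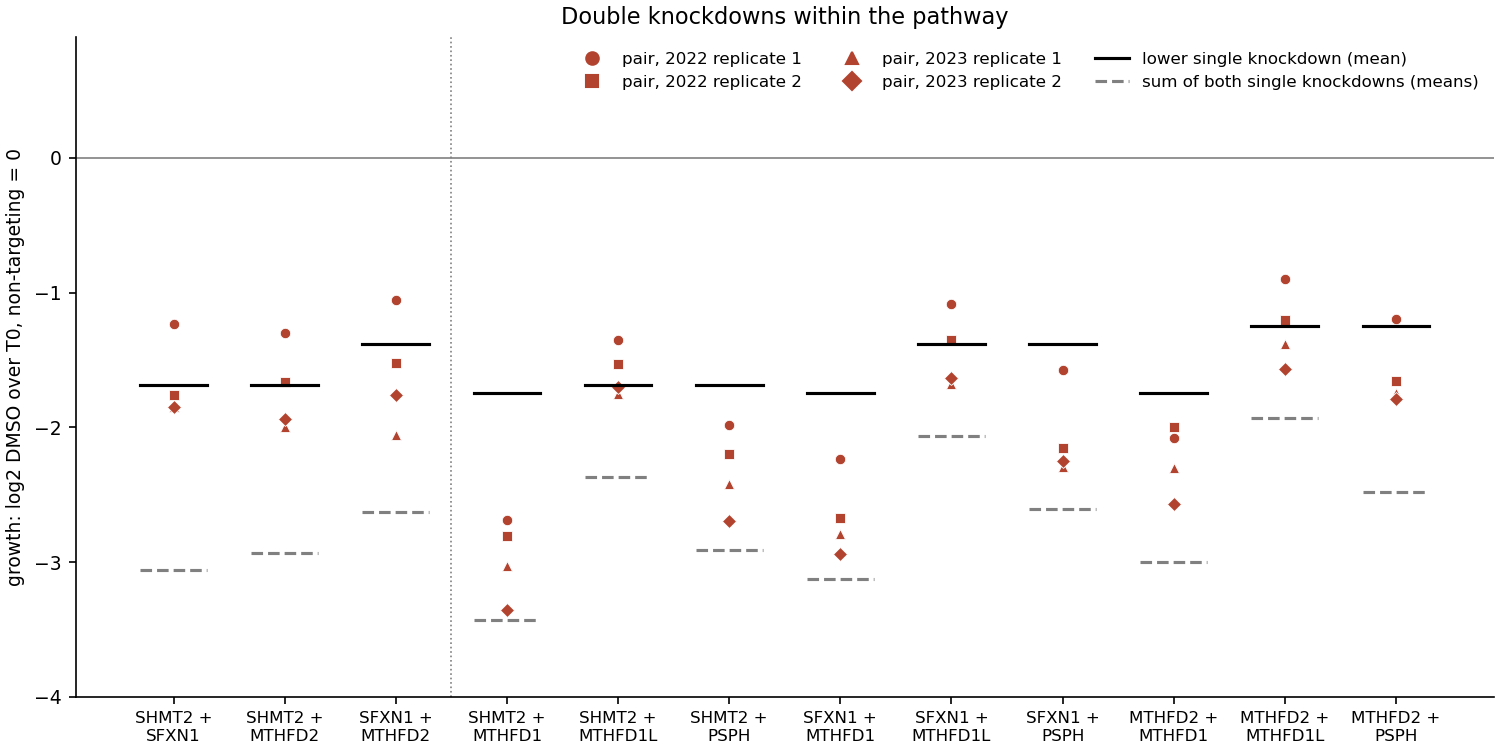
Growth (log2 DMSO over T0) of 12 double knockdowns within one-carbon and serine metabolism, 1 symbol for each of 4 cultures. Black bars are the mean of the more depleted single knockdown and dashed bars the sum of both single means. The 3 pairs of members, left of the dotted line, lie around the black bars at -1.67, -1.72 and -1.60, and pairs of a member with MTHFD1 lie below them at -2.97, -2.66 and -2.24.

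Pairs with the other enzymes of the pathway fell into 2 patterns. With MTHFD1L, the next mitochondrial enzyme, the combined growth was -1.58 ± 0.18 for SHMT2, -1.44 ± 0.28 for SFXN1 and -1.26 ± 0.28 for MTHFD2. Within a culture these differed from the member alone by 0.10 ± 0.17, -0.06 ± 0.09 and -0.01 ± 0.11, less than the spread between cultures. With cytosolic MTHFD1 the combined growth was -2.97 ± 0.29 for SHMT2, -2.66 ± 0.30 for SFXN1 and -2.24 ± 0.26 for MTHFD2, below both singles by more than 1 SD in each case. With PSPH it was -2.32 ± 0.31, -2.07 ± 0.33 and -1.60 ± 0.28 for the same 3 genes, so the pair with MTHFD2 lost the least beyond its singles. The pairs with MTHFD1 had as few as 87, 179 and 229 reads in a library for SHMT2, SFXN1 and MTHFD2. Those with PSPH had as few as 185, 347 and 492.

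Interaction scores set each pair against an expectation. For each sgRNA a curve was drawn through the growth of its pairs against the growth of the partners alone, and the score is the distance of a pair from that curve in log2 units. A score below 0 means more loss than that curve gives, and a score above 0 less. The reference score uses DMSO over T0. In limma's test over 147044 gene pairs, SHMT2 with SFXN1 scored 0.52, 0.62, 0.84 and 0.71 in the 4 cultures (mean 0.67 ± 0.14, adjusted p = 0.00934), the highest reference score of any SHMT2 partner. SHMT2 with MTHFD2 scored 0.38 ± 0.12 (adjusted p = 0.0281), the highest of any MTHFD2 partner. SFXN1 with MTHFD2 scored 0.30 ± 0.12 (adjusted p = 0.0531) and did not pass. All 12 values were above 0. Each of the 4 sgRNA combinations of each pair was also above 0, from 0.56 to 0.75 for SHMT2 with SFXN1, 0.16 to 0.54 for SHMT2 with MTHFD2 and 0.23 to 0.36 for SFXN1 with MTHFD2.

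Scores with MTHFD1L were 0.31 ± 0.19 for SHMT2, 0.21 ± 0.07 for SFXN1 and 0.20 ± 0.11 for MTHFD2, with limma adjusted p of 0.0932, 0.0701 and 0.114. Scores with MTHFD1 were -0.30 ± 0.26, -0.29 ± 0.17 and -0.01 ± 0.18 for the same 3 genes, and those with PSPH were -0.10 ± 0.12, -0.11 ± 0.11 and 0.23 ± 0.14. None of these 9 passed. The scores with MTHFD1 average sgRNAs that differed. With SHMT2 they were 0.09 and -0.04 for the first MTHFD1 sgRNA and -0.77 and -0.49 for the second. With MTHFD2 they were 0.12 and 0.22 for the first and -0.25 and -0.14 for the second. With SFXN1 they were -0.01 and -0.47 for the first and -0.30 and -0.38 for the second. MTHFD2 stood higher than SHMT2 and SFXN1 with both cytosolic enzymes, a difference that was not tested. Their level depends on the expectation: with the sum of both single phenotypes in place of the curve, all 9 were above 0, at 0.61 to 1.05.

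Against the whole library, SHMT2 had 39 partners called lower and 3 called higher in the reference score, of 541 tested. SFXN1 had 25 lower and 3 higher of 542, and MTHFD2 had 3 lower and 3 higher of 542. Over all gene pairs 1.28% were called lower and 1.06% higher, and the median gene had 4 lower and 3 higher calls, so SHMT2 and SFXN1 had many lower calls and MTHFD2 about as many as a typical gene. The calls need all 4 cultures: with any 1 culture left out, lower calls were 1 to 8 for SHMT2, 1 to 3 for SFXN1 and 0 to 1 for MTHFD2. They also need the curve. With the sum of both singles as the expectation, lower calls were 5, 5 and 6 and higher calls 316, 320 and 356, since most pairs lost less than their sum.

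Lower scores with all 3 members were called for HUS1, RAD9A and SMARCE1. HUS1 and RAD9A are subunits of the clamp that is loaded at stalled replication forks and activates the kinase ATR, and SMARCE1 is a subunit of the BAF chromatin remodelling complex. HUS1 scored -0.75, -0.69, -0.83 and -0.86 with SHMT2 in the 4 cultures (mean -0.78 ± 0.08, limma adjusted p = 0.00525), -0.64 ± 0.09 with SFXN1 (adjusted p = 0.00651) and -0.47 ± 0.10 with MTHFD2 (adjusted p = 0.0162). All 12 of these culture values and all 12 sgRNA combinations lay below 0. The pair of HUS1 with SHMT2 had a growth of -3.07 ± 0.25, close to the sum of both singles at -3.08, and with SFXN1 it had -2.80 ± 0.16 against -2.77. RAD9A scored -0.65 ± 0.14, -0.50 ± 0.16 and -0.28 ± 0.09 with SHMT2, SFXN1 and MTHFD2 (limma adjusted p = 0.0102, 0.0229 and 0.0470), and SMARCE1 scored -0.60 ± 0.18, -0.46 ± 0.13 and -0.24 ± 0.02 (limma adjusted p = 0.0202, 0.0221 and 0.0392). Set against the sum of singles, RAD9A was above 0 at 0.40, 0.43 and 0.73, SMARCE1 at 0.14, 0.22 and 0.47, and HUS1 at -0.09, -0.03 and 0.21.

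The 4 lowest called partners of SHMT2 were SDAD1 at -0.81 ± 0.30 (limma adjusted p = 0.0251), HUS1, ATR at -0.74 ± 0.25 (adjusted p = 0.0223) and XRCC5, the Ku80 subunit of the DNA end-joining factor, at -0.67 ± 0.15 (adjusted p = 0.0112). ATR scored -0.29 ± 0.16 with SFXN1 and -0.11 ± 0.17 with MTHFD2, neither passing. For SFXN1 the lowest were HUS1, RABGGTB, a subunit of the enzyme that lipidates Rab proteins, at -0.57 ± 0.11 (limma adjusted p = 0.0111), RAD9A, and C12orf66, a component of the KICSTOR complex that restrains mTORC1, at -0.46 ± 0.12 (adjusted p = 0.0196). RABGGTB and C12orf66 were also called with SHMT2, at -0.46 and -0.35.

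Higher scores were called for few partners outside the pathway. CYB5B, a cytochrome b5 of the outer mitochondrial membrane, scored 0.67 ± 0.16 with SFXN1 (limma adjusted p = 0.0118) and 0.31 ± 0.12 with MTHFD2 (adjusted p = 0.0448), and 0.39 ± 0.24 with SHMT2, which did not pass (adjusted p = 0.0832). The growth of CYB5B with SFXN1 was -1.76 ± 0.22, less loss than CYB5B alone at -1.96 ± 0.33, though within their SD. CYB5B also ranked 5 in response, at 0.83 ± 0.15. HNRNPK, an RNA-binding protein, scored 0.46 ± 0.18 with SHMT2 (limma adjusted p = 0.0348), CUL2, a ubiquitin ligase scaffold, 0.29 ± 0.07 with SFXN1 (adjusted p = 0.0342), and PRPS1, which makes the ribose phosphate donor for purine synthesis, 0.27 ± 0.07 with MTHFD2 (adjusted p = 0.0421).

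Among the fixed partner lists, mitochondrial translation had 6 measured genes. With SHMT2, 4 of 6 were called lower, the mitochondrial tRNA synthetases LARS2 (-0.57), PARS2 (-0.51), AARS2 (-0.32) and CARS2 (-0.27). With SFXN1, 2 of 6 were, CARS2 (-0.37) and AARS2 (-0.31), and with MTHFD2, 0 of 6. Over all partners the share called lower was 7.21% for SHMT2, 4.61% for SFXN1 and 0.554% for MTHFD2, against which the counts of these lists are to be read. The list's median score was -0.29 with SHMT2, -0.26 with SFXN1 and -0.03 with MTHFD2, beside -0.06, -0.05 and -0.01 over all partners. Of 8 respiratory chain and heme genes, 1 was called with SHMT2 (the complex I subunit NDUFB2 at -0.48), 2 with SFXN1 (the ATP synthase subunit ATP5J2 at -0.38 and the fumarase FH at -0.32) and 0 with MTHFD2. IARS2, the synthetase for isoleucine, scored 0.45 ± 0.47 with SHMT2 and -0.82 ± 0.43 with MTHFD2, neither passing, and its pairs had as few as 29 reads in a library with SHMT2 and 120 with MTHFD2. The first MTHFD2 sgRNA with the second IARS2 sgRNA had no value. The other combinations of MTHFD2 with IARS2 scored -0.37, -0.11 and -1.97 ± 1.20, so the mean rests largely on the last.

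Of 35 ATR checkpoint and replisome genes, 4 were called lower in the reference score with SHMT2 (HUS1, ATR, RAD9A and the helicase subunit MCM3 at -0.30) and 2 each with SFXN1 and MTHFD2 (HUS1 and RAD9A). The list's median was -0.06, -0.08 and -0.01, close to that of all partners. Of 31 homologous recombination genes, 0 were called with SFXN1 or MTHFD2, and DNA2 with SFXN1 stood farthest from 0 there at -0.24. In the reference score none of 15 Fanconi anemia genes was called with any member, with WDR48 (-0.21) and FANCG (-0.19) with SHMT2 the farthest from 0. None of 5 base excision genes was called either, with LIG1 and LIG3 at 0.18 and 0.11 with SFXN1. Of 7 genes of PARP1 and ADP-ribose turnover none was called: PARP1 scored -0.18 ± 0.27, -0.21 ± 0.18 and -0.15 ± 0.15 with SHMT2, SFXN1 and MTHFD2, and PARP2 stayed between -0.10 and 0.06. None of 3 pyrimidine genes was called, with CAD at -0.28 and UMPS at -0.18 with SHMT2 the farthest from 0.

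The profiles of reference scores over all partners were most alike for SHMT2 and SFXN1. Pearson r between them was 0.70 over 540 partner genes, rank 1 for each, where the 95th percentile of all genes was 0.25. These profiles share libraries and cultures, and r is given as a description. The next genes for SHMT2 were MTHFD1L (0.45), ABCB1 (0.40), ETAA1 (0.39) and ZNF574 (0.38), and for SFXN1 they were MTHFD1L (0.49), UPF3A (0.38), PPP2R2A (0.38) and ZNF574 (0.37). For MTHFD2 the highest were MTHFD1L (0.37), SFXN1 (0.37), SHMT2 (0.31), COPS2 (0.20) and LIG1 (0.19). These ranks were less stable: SHMT2 ranked 5 for MTHFD2 in 2022 and 1 in 2023, and in single cultures between 1 and 90, and MTHFD1L between 2 and 354. MTHFD2 in turn ranked 17 for SHMT2 and 8 for SFXN1. MTHFD1 had an r of -0.08 with SHMT2, -0.10 with SFXN1 and 0.11 with MTHFD2, and PSPH 0.05, -0.04 and 0.12. In each screen alone SFXN1 remained rank 1 for SHMT2, with r of 0.55 in 2022 and 0.48 in 2023.

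**Figure D4:**
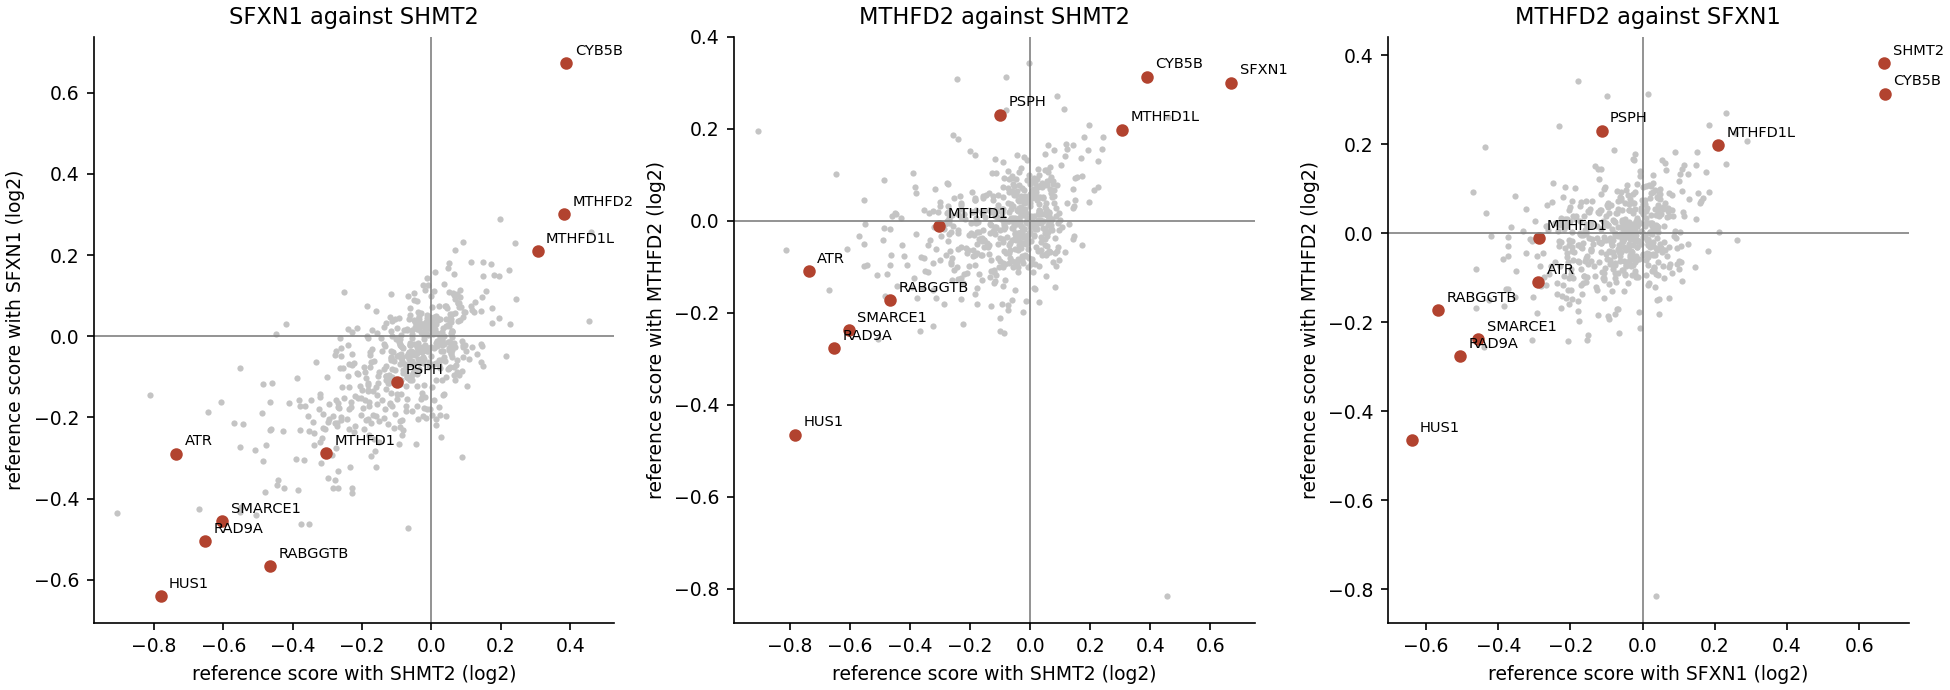
Reference interaction scores (log2 distance of a pair from its expected growth) of all partner genes, mean of 4 cultures, with each pair of members on the 2 axes. Red points are named partners. SHMT2 and SFXN1 scores run along the diagonal (r = 0.70), with HUS1 at -0.78 and -0.64 and CYB5B at 0.39 and 0.67, while MTHFD2 scores keep closer to 0 (r = 0.31 with SHMT2 and 0.37 with SFXN1).

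In the niraparib arm, scored in the same way from niraparib over T0, SHMT2 with SFXN1 scored 0.54, 0.40, 0.40 and 0.42 (mean 0.44 ± 0.07, limma adjusted p = 0.00836). SFXN1 with MTHFD2 scored 0.25 ± 0.06 (adjusted p = 0.0345) and SHMT2 with MTHFD2 0.31 ± 0.21, which did not pass (adjusted p = 0.0878). CYB5B was called higher with all 3 members, at 0.46 ± 0.11 with SHMT2, 0.46 ± 0.11 with SFXN1 and 0.43 ± 0.12 with MTHFD2 (limma adjusted p = 0.0113, 0.0110 and 0.0136). DNMT1, the maintenance DNA methyltransferase, was called with SHMT2 (0.50 ± 0.09) and MTHFD2 (0.43 ± 0.15), and TOPBP1, an activator of ATR, was lower with SHMT2 (-0.45 ± 0.14) and SFXN1 (-0.35 ± 0.12). HUS1 was called lower with SFXN1 (-0.34 ± 0.10) and MTHFD2 (-0.26 ± 0.11), and scored -0.49 ± 0.32 with SHMT2 (limma adjusted p = 0.0651). Of the 15 Fanconi anemia genes, 2 were called higher with MTHFD2 in this arm, C19orf40 (0.30 ± 0.05) and FANCM (0.24 ± 0.03), and none with SHMT2 or SFXN1. Over all partners, 1.66% were called higher with MTHFD2. Other lists also had calls. With SHMT2, 5 of 35 ATR checkpoint and replisome genes and 2 of 31 homologous recombination genes were lower, beside 3.70% of all partners. With SFXN1, 2 of 6 mitochondrial translation genes and 2 of 35 ATR checkpoint and replisome genes were lower, beside 1.29%.

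Niraparib scores called lower numbered 20 for SHMT2, 7 for SFXN1 and 1 for MTHFD2, and those called higher 8, 3 and 9. Over all pairs 2.63% were lower and 2.49% higher, and the median gene had 6 lower and 9 higher calls. SFXN1 and MTHFD2 stood under the background share in both directions, and SHMT2 stood above it in lower calls alone. Of the 3 genes only SFXN1 was on the other side of that share in the reference arm, for lower calls.

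**Figure D5:**
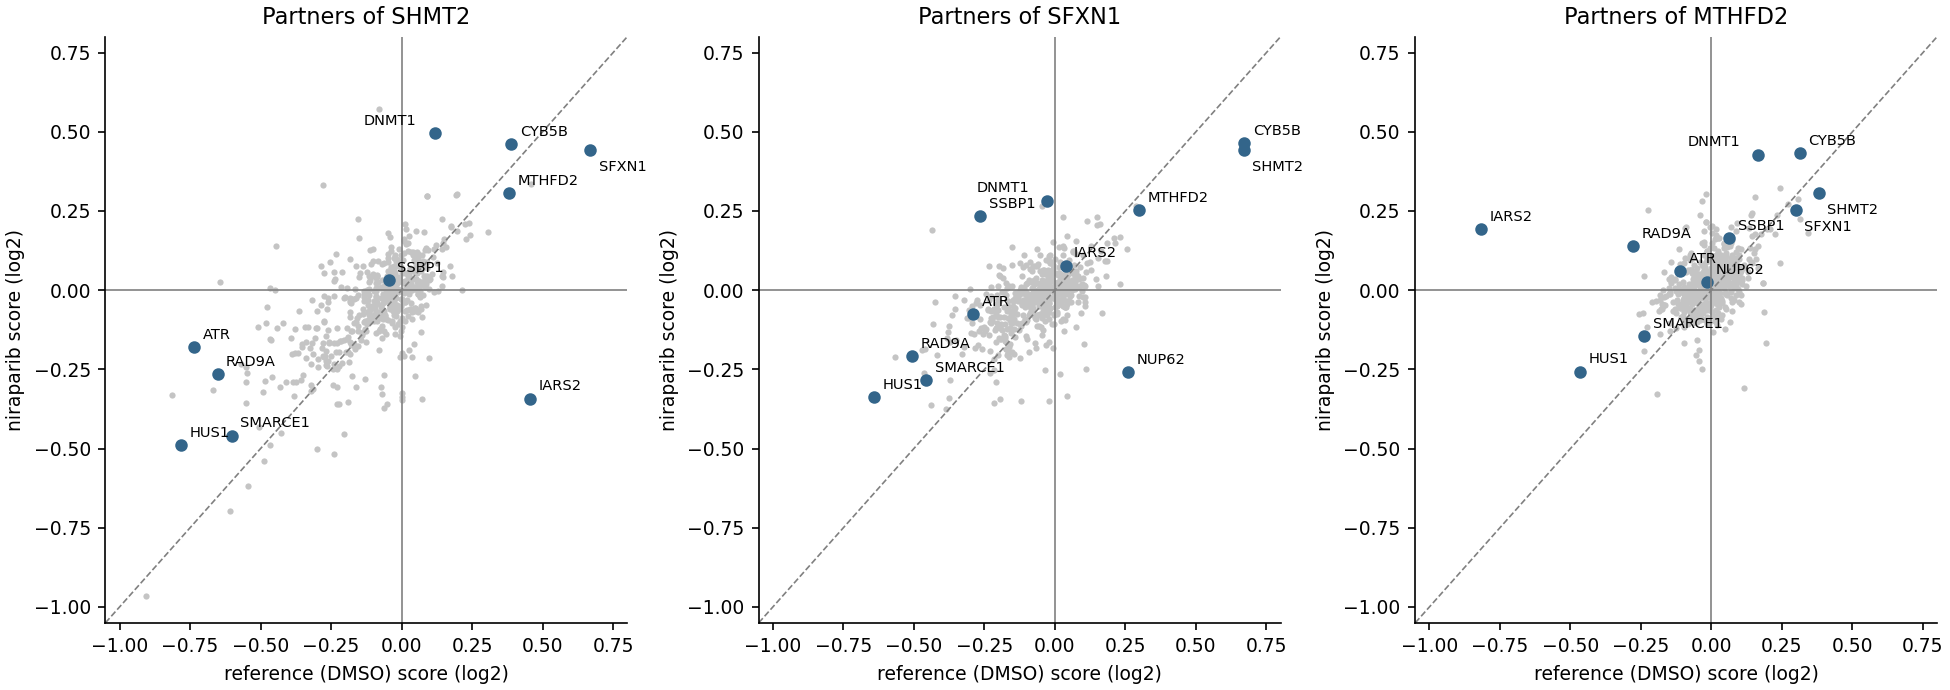
Niraparib interaction score (vertical) against reference score (horizontal) of each partner of SHMT2, SFXN1 and MTHFD2, in log2 units, mean of 4 cultures, with the dashed line where both are equal. Named partners are blue. Scores with the other members and CYB5B are above 0 on both axes, from 0.25 to 0.67, and HUS1 is below 0 on both.

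The differential score, niraparib minus reference score of the same culture, sets an interaction under drug against that without it. Neither score was scaled for the constants given above, 4.98 to 5.40 in the niraparib arm and 7.19 to 8.04 in the DMSO arm. A score nearer 0 under drug thus cannot be told apart from this difference in scale, and an equal score does not show an unchanged interaction. The differential score was called for 0 partners of SHMT2, 2 of SFXN1 and 0 of MTHFD2, where 0.468% of all pairs were called. With SFXN1, NUP62, a nuclear pore subunit, had -0.54, -0.49, -0.39 and -0.65 in the 4 cultures (mean -0.52 ± 0.11, limma adjusted p = 0.0346), and SSBP1, which coats single-stranded mitochondrial DNA, had 0.53, 0.37, 0.66 and 0.44 (mean 0.50 ± 0.13, adjusted p = 0.0444). Their pair counts were low, 95 to 268 reads for NUP62 and 88 to 926 for SSBP1, and neither was called with any 1 culture left out. Among partners that did not pass, the extremes were IARS2 (-0.80), HAUS1 (-0.42), NUP54 (0.67) and PLK1 (0.65) for SHMT2, and XRCC6 (-0.42), NOL6 (-0.36), IARS2 (1.01) and BRCA2 (0.48) for MTHFD2. Pairs among the members had differential scores of -0.23 ± 0.19, -0.08 ± 0.22 and -0.05 ± 0.13 for SHMT2 with SFXN1, SHMT2 with MTHFD2 and SFXN1 with MTHFD2, with limma adjusted p of 0.343, 0.816 and 0.850.

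The response of the double knockdowns, given with no test, was close to that of a single member. SHMT2 with SFXN1 had 0.79 ± 0.19, SHMT2 with MTHFD2 0.88 ± 0.44 and SFXN1 with MTHFD2 0.81 ± 0.29, beside single values of 0.84, 0.66 and 0.64. With PARP1 repressed as well, the response was 2.45 ± 0.20 for SHMT2, 2.28 ± 0.17 for SFXN1 and 2.10 ± 0.23 for MTHFD2, beside 2.14 ± 0.34 for PARP1 alone. BRCA2, a recombination mediator named here after its values were seen, had a response of -2.21 ± 0.60 alone. Its pairs had -1.25 ± 0.25 with SHMT2, -1.50 ± 0.32 with SFXN1 and -1.10 ± 0.27 with MTHFD2, between BRCA2 alone and the members. The members' own response, on which they were picked, enters these values, and they were not set against the sum of both singles. None of these pairs had a differential score that passed.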

How the data were processed

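The read counts per construct were deposited by the authors as whole numbers, 1 column for each library and with no normalization. Bowtie2 2.3.4.1 is named in the submitters' processing notes. The authors' deposited log2 phenotype tables were used only to recover the constants behind their growth values. Members and gene lists were chosen with earlier results of these data known.

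Single knockdowns were tested on counts summed over 220 constructs a gene, with edgeR 4.0.16 (quasi-likelihood, R 4.3.3), library sizes from 3025 non-targeting constructs, and 1 block term per culture. The labels tie the replicate numbers to cultures that were split. Deviations from group means correlated at only 0.031 to 0.082 within a culture, so the pairing rests on the labels. The fit had 598 rows, 543 genes and 55 non-targeting sgRNAs, a biological coefficient of variation of 3.06% and 4 residual degrees of freedom by design. Interaction scores left out constructs whose mean count at T0 was under 30, and 1 was added to each count. They were centred on the non-targeting constructs, with a curve of degree 2 through at least 100 partners. Values were averaged over both orders, the curves of both sgRNAs and up to 4 sgRNA combinations, fewer where a combination had no value. limma 3.58.1 tested the 4 culture values of 147044 gene pairs. Benjamini-Hochberg adjustment ran over all rows, at a threshold of 0.05. Named genes were the list of one-carbon and serine genes, for each member up to 4 lowest and 4 highest called partners in the reference and differential scores (with none called, the 2 lowest and 2 highest), its 5 most alike profiles, and the 2 partners farthest from 0 in each list. Other named partners were chosen after their values were seen. Both steps were tested on simulated data. PCR reads carried no molecular identifiers, so the reads behind a value bound counting error only. Some results for single genes are not reported here.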

Additional observations from a re-analysis of the deposited data

Results flagged for a closer look

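The growth of 2 pathway genes outside the 3 members differed between the screens in edgeR's test of that difference. MTHFD1 knockdown lost more in 2023 (-1.87) than in 2022 (-1.62), a difference of -0.25 with an adjusted p of 0.00454, and the call was lost in 1 of 12 alternatives. MTHFD1L knockdown also lost more in 2023 (-0.78) than in 2022 (-0.58), a difference of -0.19 with an adjusted p of 0.0474, and the call was lost in 7 of 12. Its value hangs on the 2022 cultures, at -0.11 without replicate 1 and -0.28 without replicate 2 of 2022, fits that leave that year 1 culture. Growth here is DMSO over T0, so the niraparib libraries do not enter these values. Harvest was on day 19 in 2023 and on day 18 in 2022, and 31.1% of all genes were called for this difference.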

How the results depend on the processing

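Growth of the 3 members stayed lower, and called, in all 36 alternatives (other scaling, DESeq2, single sgRNAs or positions, no replicate block, a T0 filter, or 1 culture left out). TMM scaling moved the median growth of all genes up by 0.45, and the members to -1.23, -0.92 and -0.80 for SHMT2, SFXN1 and MTHFD2. Scaling the niraparib change to the DMSO constants gave responses of 0.44, 0.32 and 0.35 for the members, -0.36 for MTHFD1 and -0.19 for PSPH.

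The screen difference in growth passed with DESeq2 for SHMT2 (-0.47, adjusted p = 0.00392) and MTHFD2 (-0.32, adjusted p = 0.0107), and that in response for SHMT2 (0.48, adjusted p = 0.0166) and MTHFD2 (0.30, adjusted p = 0.0455). With 1 culture left out, the growth difference ran from -0.71 to -0.21 for SHMT2, -0.51 to -0.13 for SFXN1 and -0.50 to -0.14 for MTHFD2. Without a 2022 culture that arm holds 1 sample, assumed to vary like the other groups, and calls made so are not used. The response difference ran from 0.19 to 0.61, 0.061 to 0.43 and 0.093 to 0.37 for the same genes.

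Counts of called partners are given here for SHMT2, SFXN1 and MTHFD2 in turn. With 10 added to each count, reference calls were 69, 69 and 12 lower and 6, 8 and 9 higher, niraparib calls 33, 19 and 2 lower and 13, 6 and 19 higher, and differential calls 0, 3 and 0 lower and 4, 5 and 2 higher. With the sum of single phenotypes as expectation, reference calls were 5, 5 and 6 lower and 316, 320 and 356 higher, niraparib calls 5, 2 and 1 lower and 284, 306 and 341 higher, and differential calls 93, 93 and 142 lower and 12, 12 and 18 higher. With screen as a term, MTHFD2 had 1 lower reference call and SFXN1 had 0 differential calls in either direction. With no minimum T0 count, MTHFD2 had 5 higher reference calls and SFXN1 had 0 lower differential calls. With a minimum of 100, MTHFD2 had 1 lower reference and 0 lower niraparib calls, and SFXN1 had 0 differential calls in either direction. With no replicate block, SHMT2 had 1 higher differential call, and no call on a member's growth changed. With 1 culture left out, reference calls ran from 1 to 8, 1 to 3 and 0 to 1 lower, and from 0 to 2, 0 to 2 and 0 to 0 higher. Niraparib calls ran from 3 to 5, 0 to 1 and 0 to 0 lower and from 2 to 4, 2 to 3 and 0 to 2 higher, and differential calls were 0 throughout.

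With the sum of singles as expectation, scores that turned above 0 were those of SHMT2 with MTHFD1 (0.87), PSPH (0.70), SDAD1 (0.41), ATR (0.40), XRCC5 (0.34), RAD9A (0.40) and SMARCE1 (0.14), of SFXN1 with MTHFD1 (0.74), PSPH (0.61), RABGGTB (0.43), RAD9A (0.43) and SMARCE1 (0.22), and of MTHFD2 with MTHFD1 (1.05), HUS1 (0.21), RAD9A (0.73) and SMARCE1 (0.47). The differential score of SFXN1 with SSBP1 became -0.016. The score of MTHFD2 with MTHFD1, -0.01 as reported, was 0.0069 at a minimum of 100, 0.0025 without replicate 1 of 2022 and 0.065 without replicate 2 of 2023, in a range of -0.069 to 0.065 with 1 culture left out. Of 307 alternatives for named pairs, 86 lost the call, 20 changed direction and 13 gained a call. Profile likeness in 1 screen was 0.55 in 2022 and 0.48 in 2023 for SHMT2 with SFXN1, 0.20 and 0.23 for SHMT2 with MTHFD2, and 0.21 in 2023 for SFXN1 with MTHFD2. The cause was not tested for any of these changes. Some pairs hold under 100 reads in an endpoint library, which limits their precision.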

Other observations

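Double knockdowns of a member with MTHFD1 had responses of 0.95 ± 0.13 with SHMT2, 0.85 ± 0.22 with SFXN1 and 0.68 ± 0.16 with MTHFD2 (SD, n = 4 cultures), beside 0.32 ± 0.07 for MTHFD1 alone. With PSPH they were 0.83 ± 0.31, 0.69 ± 0.18 and 0.63 ± 0.20, beside 0.26 ± 0.06 for PSPH alone, and with MTHFD1L 0.77 ± 0.13, 0.72 ± 0.29 and 0.69 ± 0.25, beside 0.36 ± 0.09. In all 9 pairs the mean response lay closer to that of the member than to that of the partner. These values hold the response on which the members were picked and are given with no test.

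C12orf66 knockdown grew faster than non-targeting cells, at 0.75 ± 0.11 in growth, and its response was -0.44 ± 0.02. Its pair with SFXN1 had a growth of -1.37 ± 0.29, the level of SFXN1 alone at -1.38, against a sum of singles of -0.63. Its pair with SHMT2 had -1.63 ± 0.32, beside -1.68 for SHMT2 alone and a sum of -0.94. With the sum of singles as the expectation, its scores stayed below 0, at -0.76 with SFXN1 and -0.66 with SHMT2.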
